A study of Rattus norvegicus with 30 samples.

Results

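The clustered protocadherins are cadherin-type adhesion proteins of the neuronal surface that bind the same isoform on a facing membrane in the presence of calcium. Their genes stand in tandem in alpha, beta and gamma clusters, where each variable isoform has its own promoter and is encoded mainly by a single large exon. Individual neurons switch on different sets of these promoters, and the resulting combinations serve self-recognition and keep the dendrites of a neuron apart from each other. The genes described here are those that the deposited count tables place on chromosome 18 with their first base between 29400000 and 30700000 and with at least 30 counts summed over 30 libraries. Of the 43 genes in this interval, 39 met the count minimum, out of 32552 genes in the tables. The 4 genes left out had 0, 1, 15 and 17 counts in all libraries together, the last of them being ENSRNOG00000020103, a single-exon gene on the plus strand at 30283675 to 30286131, and the lowest genes kept had 78 and 121.

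Each library came from a single adult, wild-type, male Sprague-Dawley rat. The CT rats (n = 7) pressed a lever for saline and were not shocked. The SR (n = 7) and SS (n = 6) rats took methamphetamine (METH) by lever press over 21 days of training and then over 8 days in which some presses were punished by foot-shock, which left lever pressing high in SR rats and reduced it in SS rats. The YSR (n = 5) and YSS (n = 5) rats worked for saline and were shocked whenever the SR or SS rat they were yoked to was shocked. The paper reports that SR rats took more METH than SS rats under punishment. It also reports more shocks in SR and YSR rats than in SS and YSS rats. Phenotype, METH intake and number of shocks therefore cannot be told apart in SR vs. SS. The study's methods name the entire hippocampus, removed right after the final session, while its abstract puts the time at 2 h. The records of the libraries also give 2 h, and they name the dorsal striatum as tissue but the hippocampus in their protocol. The titles carry the codes XII and XIII, which are taken here as cohorts. Cohort XII supplied 1 of 7 CT, 4 of 7 SR, 2 of 6 SS, 3 of 5 YSR and 1 of 5 YSS rats, so that group and cohort are partly confounded. Total counts were 16224250 to 19404440 per CT library (median 17386092), 16329258 to 18737037 per SR library (median 16946598) and 16202659 to 19110830 per SS library (median 17536539). They were 14584340 to 19997820 in YSR rats (median 17110757) and 17155083 to 19181886 in YSS rats (median 17830500). A floor of 3 counts, below which a gene was taken as not detected, is at most 0.206 CPM (counts scaled to the same total in every library) at these depths, and covers counting error only.

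The files give Ensembl identifiers without symbols, and 0 of them could be paired with a name in the RefSeq gene table used here. The members are therefore given by identifier and position, and neither the tissue nor its cell types could be checked against marker genes. The label of the interval was checked on the layout of its genes. At its start lay 12 genes with several exons each, 6 per strand, between 29494014 and 29644652. The other members were 26 genes on the plus strand and 1 after another, mostly with a single exon, which is the layout of a protocadherin cluster. Of these, 4 genes of a single exon (2370 to 2388 bp) lay between 29951094 and 29975192. They were followed by ENSRNOG00000020119, a gene that spans 228692 bp, from 29987206 to 30215897. Its 13 exon blocks were 10 large blocks of 2355 to 2562 bp, small blocks of 59 and 89 bp and a last block of 2709 bp, so that its count adds up several large exons. Beyond it, 21 genes stood between 30375798 and 30595181, of which 17 had a single exon block and 4 had several. A further single-exon gene of very short length lay among them at 30579129 to 30579230.

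In RefSeq (assembly GRCr8), the corresponding stretch holds Sra1, Cd14, Ik, Wdr55, Hars1 and other genes, then 1 Pcdha gene, 22 Pcdhb genes and 16 Pcdhg genes. The build of the counts is not given, so that names, order and spans in bp were used and positions were not. Exactly the span in bp of a Pcdhb gene was found for 6 of the 21 genes after the long gene, against 0.557% of 4669 genes elsewhere with a span from 1891 to 6184 bp. Among the 12 genes at the start, 4 had exactly the span of 1 of the 17 RefSeq genes that precede the Pcdha gene, against 0.133% of genes elsewhere of like span. Equal spans do not name a gene, and no symbol is assigned to a member here. No pair of members shared an exon, so that the common ends or constant exons named in the description of the interval were not found as shared between members. Constant exons listed within a single gene, such as the long gene, would not be found in this way. Exons of neighbouring isoforms resemble each other. The sources used here do not say how reads that match several places were counted, and the division of counts among the 26 tandem genes is uncertain for this reason.

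Levels were compared between genes as mean CPM per kb of exon over the 30 rats, after TMM normalization, which scales the libraries so that most genes match between them. The 12 genes at the start ranged from 0.180 to 62.3 CPM per kb (median 23.6). The highest were ENSRNOG00000016016 with 62.3 ± 3.38 (SD, n = 30), ENSRNOG00000017571 with 61.6 ± 4.90 and ENSRNOG00000028105 with 42.8 ± 1.85. ENSRNOG00000017571 overlaps ENSRNOG00000017718 on the other strand, and whether the counting used the strand is not given in the sources used here. Most of the 12 genes lay above every tandem gene, but ENSRNOG00000060829 (0.180), ENSRNOG00000016894 (0.596) and ENSRNOG00000017819 (0.743) did not. The long gene had 5.31 ± 0.373 CPM per kb, the 4 genes before it 0.0621 to 1.71 and the 21 genes after it 0.575 to 4.32 (median 1.71). ENSRNOG00000039469 (4.32 ± 0.635), ENSRNOG00000020072 (3.91 ± 0.603) and ENSRNOG00000020062 (3.59 ± 0.568) led the single-exon genes, and their SDs overlap. These 21 genes, which had to reach 30 counts to be included, had counts in every library. ENSRNOG00000020103, which stands between them and the long gene and missed that minimum, had 0 counts in 17 of 30 rats and 0.0127 CPM per kb. All 39 members together took 0.0789% to 0.0842% of the counts of a library, of which the long gene contributed 0.0121% to 0.0167% and the 21 genes after it 0.00938% to 0.0138%.

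**Figure D1:**
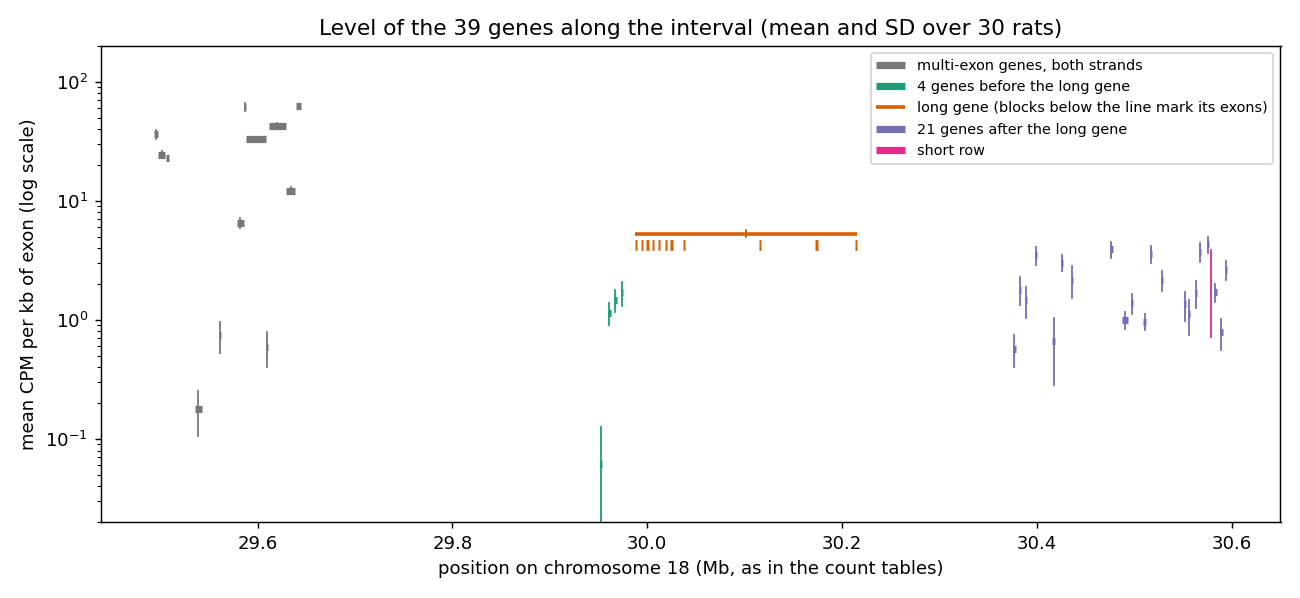
Mean CPM per kb of exon (log scale, vertical bars SD over 30 rats) of the 39 members along chromosome 18 in Mb; horizontal bars span each gene. The genes at the start reach 62.3 CPM per kb, while the tandem genes lie between 0.0621 and 5.31.

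The spread between rats was wide in the tandem genes, as it was in the rare genes at the start. The biological coefficient of variation (BCV), edgeR's estimate of the relative spread between rats of a group beyond counting error, had a median of 0.166 over the 24 tandem genes tested other than the long gene (0.113 to 0.520). It was 0.0696 over the 12 genes at the start, 0.0669 for the long gene and 0.0938 over all 15797 genes tested. The 3 rarest genes at the start had 0.305 (ENSRNOG00000060829), 0.225 (ENSRNOG00000017819) and 0.135 (ENSRNOG00000016894), within the range of the tandem genes. The tandem genes other than the long gene were also rare, and the part of their low counts in this spread was not tested. The widest, ENSRNOG00000054953 (30416038 to 30418372), was named after its values were seen. It had 0.685, 1.95 and 2.86 CPM as lowest, median and highest value in CT rats, 0.579, 1.54 and 3.35 in SR rats, and 0.418, 1.14 and 2.69 in SS rats. YSR rats had 0.479, 0.480, 0.595, 0.839 and 2.59 CPM, and YSS rats 0.809, 0.871, 1.47, 1.59 and 2.73. High and low rats occurred in every group, over an 8.02-fold range in all, and the groups overlapped throughout.

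Group differences were tested with edgeR's quasi-likelihood test on all 30 libraries, with Benjamini-Hochberg adjustment over the 15797 genes kept by its filter on low counts. The filter kept 37 of the 39 members, 25 of them tandem genes. The genes with 78 and 121 counts, at 0 to 12 counts per library, were not tested. A gene is called unadjusted or adjusted where the respective p is under 0.05. No member passed the adjusted threshold of edgeR in any of the 10 comparisons. With DESeq2, 1 member, ENSRNOG00000033479, passed it in SR vs. CT and in the test over all 5 groups, and no member passed in the other comparisons. The share of all genes that passed in these DESeq2 tests is not given here. Exact two-sided permutation tests over the rats of 2 groups are given for single members. These members were picked by their edgeR p on the same values, and the exact p is not adjusted for the number of genes. The share of all genes without overlap between groups or cohorts is not given here. In pooled tissue, fewer cells of a type and less RNA per cell cannot be told apart in any of these differences.

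SR vs. CT compares rats that kept taking METH under punishment with rats that had neither drug nor shock. The tandem genes were mostly lower in SR rats. Of the 25 tested, 24 had a log2 fold change below 0 (median -0.16), against 49.0% of all genes (median 0.00). Of the 12 genes at the start, 11 were above 0 (median 0.04), but 8 with the cohort as a covariate and 6 in cohort XIII alone. Summed over the 21 genes after the long gene, the lowest, median and highest levels were 101, 115 and 132 CPM in CT rats and 93.5, 101 and 112 CPM in SR rats. The groups overlapped in the lower part of the CT range, and 4 of 7 CT rats were above every SR rat. Means were 117 ± 12.1 CPM (SD, n = 7) in CT and 103 ± 6.44 (SD, n = 7) in SR rats. In cohort XIII alone they were 119 ± 12.1 (n = 6) and 104 ± 6.88 (n = 3), and the SR rats of cohort XII had 103 ± 7.13 (n = 4), while cohort XII held a single CT rat (106 CPM). The number of tandem genes below 0 was 23 (median -0.19) with the cohort as a covariate, 20 (median -0.22) in cohort XIII alone, and 22 to 24 when each library was left out in turn. Tandem genes of a library share tissue and depth, so that this number is not one of independent events.

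At an unadjusted p under 0.05, 5 of 37 members were called in SR vs. CT, 4 lower and 1 higher, where 10.5% of all genes were called. After adjustment 0 members were called by edgeR, as were 0% of all genes. The lowest adjusted p of a member was 0.129. It belonged to ENSRNOG00000033479, a single-exon gene of 2918 bp near the end of the interval (30587872 to 30590789). CT rats had 2.21, 3.01 and 3.74 CPM as lowest, median and highest value, and SR rats had 1.06, 1.45 and 2.18. Every SR rat was below every CT rat, but narrowly, with the highest SR rat at 2.18 and the lowest CT rat at 2.21 CPM. The gene was singled out by its p in these data. The means of 2.93 ± 0.518 and 1.59 ± 0.436 CPM (SD, n = 7 each) gave a log2 fold change of -0.87 (standard error, SE, 0.17, adjusted p = 0.129 from edgeR), and the exact permutation p was 0.000583, the smallest that 7 and 7 rats allow. DESeq2 gave an adjusted p of 0.00943, and the other alternatives gave adjusted p from 0.105 to 0.322. Both cohorts held low SR rats, at 1.48 ± 0.430 CPM (n = 3) in cohort XIII and 1.68 ± 0.483 (n = 4) in cohort XII, against 3.05 ± 0.447 (n = 6) in the CT rats of cohort XIII and 2.21 in the CT rat of cohort XII.

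The other members called lower were ENSRNOG00000039471, ENSRNOG00000039472 and ENSRNOG00000020095, all among the 21 genes after the long gene. For ENSRNOG00000039471 (30562178 to 30564577), CT rats had 3.40, 4.74 and 7.42 CPM as lowest, median and highest value and SR rats 2.76, 3.29 and 5.03. Most SR rats were near the low end of the CT range, 4 of 7 were below every CT rat, and SR rat XIII-R09 lay in the middle of it. The fitted log2 fold change came to -0.51 (SE 0.16; edgeR adjusted p = 0.322, exact permutation p = 0.0157). The log2 fold changes of the other 2 were -0.54 (exact permutation p = 0.0455) and -0.42 (exact permutation p = 0.0286). In cohort XIII alone, with 3 SR rats, only ENSRNOG00000033479 kept its call, while the values were -0.42 for ENSRNOG00000039471, -0.42 for ENSRNOG00000039472, -0.48 for ENSRNOG00000020095 and 0.54 for ENSRNOG00000016894. The call of ENSRNOG00000039472 was also lost with the cohort as a covariate (-0.45) and without CT rat XIII-R06 (-0.40). That of ENSRNOG00000020095 was lost in 7 of 30 fits that left out a library, with values of -0.49 to -0.33 over the 30 fits. The member called higher, ENSRNOG00000016894, is one of the genes at the start, and its values are given with SR vs. SS. The count of 5 became 10 without CT rat XIII-L12, 8 without SR rat XII-R07 and 3 without CT rat XIII-R06. The shares of all genes called in these 3 fits are not given here. In cohort XIII alone the count was 1, beside 7.19% of all genes.

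**Figure D2:**
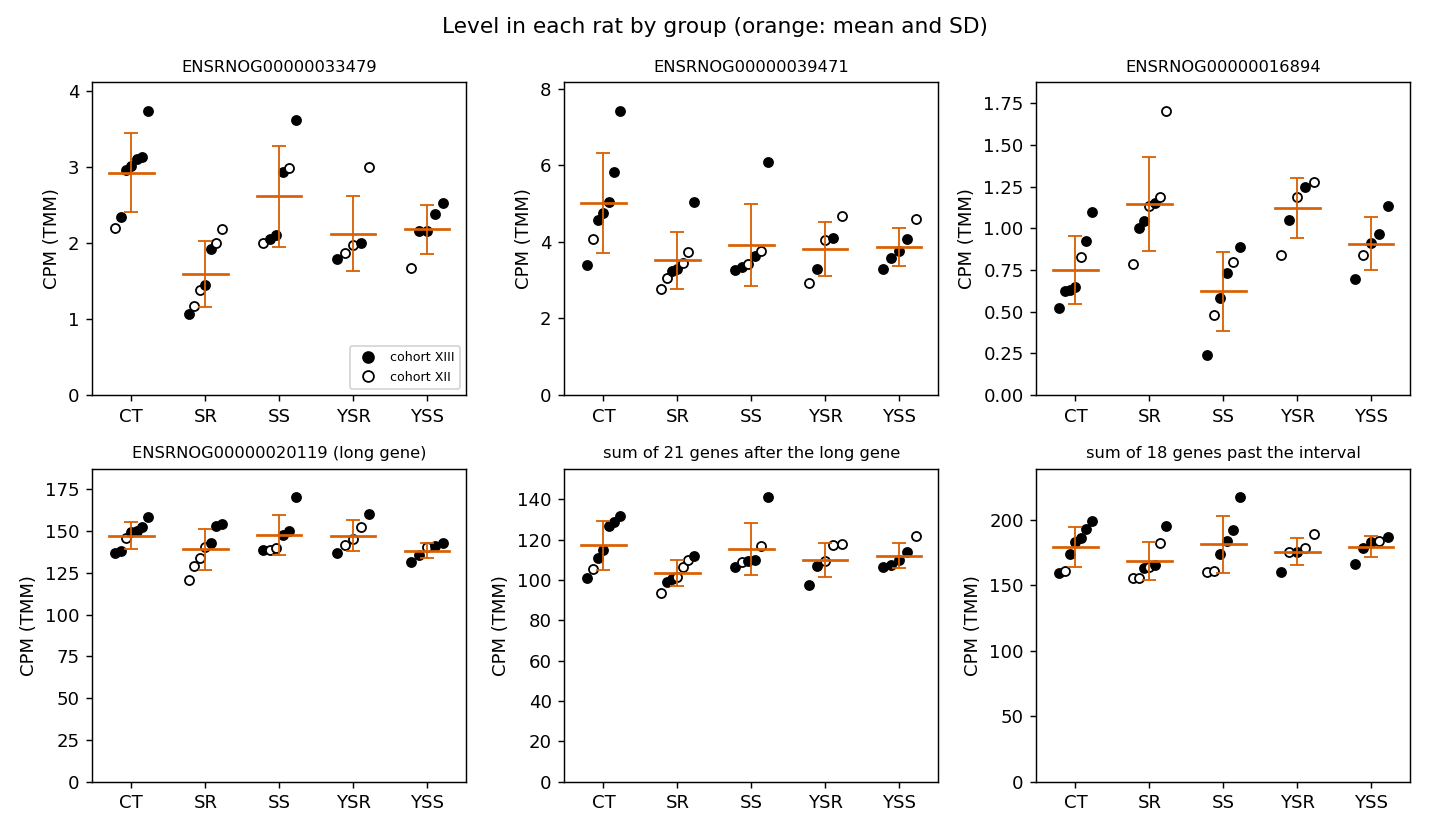
TMM-normalized CPM in each of the 30 rats by group, filled points for cohort XIII and open points for cohort XII, with mean and SD in orange, for 3 members, the long gene and the sums of 21 genes after it and of 18 genes past the interval. For ENSRNOG00000033479 the SR rats, at 1.06 to 2.18 CPM, lie below all CT rats, at 2.21 to 3.74, while the other panels overlap between groups.

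SR vs. SS compares the METH rats that kept pressing with those that reduced pressing. The tandem genes were again mostly at lower levels in SR rats, 22 of 25 with a log2 fold change below 0 (median -0.19) against 50.4% of all genes (median 0.00). Of the 12 genes at the start, 11 were above 0, but 6 in cohort XIII alone. The sum over the 21 genes after the long gene was 106, 110 and 141 CPM as lowest, median and highest value in SS rats, where SR rats had 93.5, 101 and 112. All SS rats lay above the SR median, and SS rat XIII-L05 stood far above the rest with 141 CPM. The means were 103 ± 6.44 CPM (SD, n = 7) in SR and 115 ± 13.0 (SD, n = 6) in SS rats. Without SS rat XIII-L05, 22 tandem genes were below 0 (median -0.10). In cohort XIII alone the number was 21 (median -0.20), and in cohort XII alone, fitted after the data were seen, 21 (median -0.12). SR rats are part of both this comparison and SR vs. CT.

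Called at the unadjusted threshold were 5 of 37 members (4 lower and 1 higher), beside 7.46% of all genes, and 0 members after adjustment by edgeR, beside 0% of all genes. The number was 2 without SS rat XIII-L05. It was also 2 (1 lower and 1 higher) in cohort XIII alone, beside 6.74% of all genes, and 4 in cohort XII alone, beside 8.32%. Those 4 were 1 lower and 1 higher among the tandem genes and 2 higher among the genes at the start. ENSRNOG00000033479 had 2.00, 2.52 and 3.62 CPM as lowest, median and highest value in SS rats. Of the 7 SR rats, 6 were below the lowest SS rat. The fitted log2 fold change came to -0.71 (SE 0.18; edgeR adjusted p = 0.278, exact permutation p = 0.00932), and it was -0.85 in cohort XIII and, no longer called, -0.56 in cohort XII. ENSRNOG00000039472 (30555090 to 30557497) had 1.59, 1.94 and 3.01 CPM in SR rats and 2.06, 2.68 and 5.38 in SS rats as lowest, median and highest value. The groups overlapped, with 4 of 7 SR rats below every SS rat. Its log2 fold change was -0.57 (exact permutation p = 0.0338), but -0.34 without SS rat XIII-L05, which ended its call. It was also not called in the fewer rats of either cohort alone, at -0.57 in cohort XIII and -0.32 in cohort XII. The other members called lower were ENSRNOG00000020073 (log2 fold change -0.50, exact permutation p = 0.0455) and ENSRNOG00000039469 (log2 fold change -0.25, exact permutation p = 0.0618). Both calls were lost without SS rat XIII-L05, where the values were -0.39 for ENSRNOG00000020073 and -0.14 for ENSRNOG00000039469. The former was also lost without SR rat XIII-L09 (-0.42) or XII-L07 (-0.39), and the latter without SR rat XII-R05 (-0.21). Both calls were also lost in either cohort alone. There ENSRNOG00000020073 had -0.37 in cohort XIII and -0.53 in cohort XII, and ENSRNOG00000039469 had -0.30 and -0.20.

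The member at a higher level in SR rats was ENSRNOG00000016894, a gene with 4 exon blocks on the minus strand at 29608588 to 29611212, outside the tandem genes. It was rare, with 4 to 29 counts per library. SR rats had 0.788, 1.13 and 1.71 CPM as lowest, median and highest value, SS rats 0.242, 0.659 and 0.887, and CT rats 0.519, 0.645 and 1.095. YSR rats had 0.839, 1.05, 1.19, 1.25 and 1.28 CPM and YSS rats 0.697, 0.837, 0.910, 0.966 and 1.13. Thus 6 of 7 SR rats were above every SS rat, YSR rats lay in the SR range, and CT and YSS rats overlapped both. In SR vs. SS the fitted log2 fold change came to 0.87 (SE 0.23; edgeR adjusted p = 0.302, exact permutation p = 0.0035). It was 0.79 in cohort XIII and 0.91 in cohort XII. Against CT rats it was 0.61 in SR (exact permutation p = 0.00874) and 0.58 in YSR rats (exact permutation p = 0.0152).

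SS vs. CT compares METH rats that reduced pressing with the unshocked saline rats. The tandem genes were close to CT levels, with 13 of 25 below 0 (median -0.01), against 47.6% of all genes. The sums over the 21 genes were 115 ± 13.0 CPM (SD, n = 6) in SS and 117 ± 12.1 (SD, n = 7) in CT rats and overlapped nearly throughout. With 1 library left out, 9 to 22 of 25 were below 0, from 22 (median -0.09) without SS rat XIII-L05 to 10 (median 0.02) without SS rat XII-R03 and 9 (median 0.02) without CT rat XIII-R12. Only 1 of 37 members was called unadjusted, beside 5.01% of all genes, and 0 members after adjustment by edgeR, beside 0.101% of all genes. This was ENSRNOG00000039471, with 3.27, 3.52 and 6.08 CPM as lowest, median and highest value in SS rats. All SS rats but XIII-L05 lay at or under 3.76 CPM, near or below the low end of the CT range of 3.40 to 7.42, and 2 of 6 were below every CT rat. The fitted log2 fold change came to -0.36 (SE 0.16; edgeR adjusted p = 0.969), and the exact permutation test did not reach the threshold (p = 0.127). The call was lost with the cohort as a covariate (-0.34), in cohort XIII alone (-0.35), and without CT rat XIII-R06 (-0.24) or XIII-R11 (-0.32). It was also lost without SS rat XIII-L03 (-0.32), XIII-L07 (-0.31), XIII-R03 (-0.34), XII-L03 (-0.32) or XII-R03 (-0.35).

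YSR vs. CT and YSS vs. CT ask what shocks without METH go along with, and both share their CT rats with SR vs. CT and SS vs. CT. In YSR rats 19 of 25 tandem genes were below 0 (median -0.07), against 49.4% of all genes, and in YSS rats 17 of 25 (median -0.10), against 50.6%. Leaving out 1 library moved these to between 14 and 21 genes (median -0.13 without CT rat XIII-L12 to -0.03 without CT rat XIII-R12) and between 15 and 20 genes (median -0.12 without YSS rat XIII-L06 to -0.06 without CT rat XIII-R11). The sum over the 21 genes was 97.6, 107, 109, 117 and 118 CPM in the YSR rats and 107, 108, 110, 114 and 122 CPM in the YSS rats. All of these lie within the range spanned by CT rats except the lowest YSR rat, XIII-R08. In YSR rats 4 of 37 members were called unadjusted (3 lower and 1 higher), beside 7.56% of all genes. In YSS rats there were also 4 (3 lower and 1 higher), beside 5.01% of all genes. After adjustment 0 members were called by edgeR in each, beside 0.12% and 0.0823% of all genes.

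ENSRNOG00000033479 and ENSRNOG00000039471 were called lower in both yoked groups. For ENSRNOG00000033479, YSR rats had 1.78, 1.87, 1.98, 2.00 and 3.005 CPM and YSS rats 1.67, 2.16, 2.16, 2.38 and 2.53. YSR rat XII-R10 lay at about the CT median of 3.01 CPM and the other yoked rats were lower, with 4 of 5 YSR and 3 of 5 YSS rats below every CT rat. The log2 fold changes were -0.47 (adjusted p = 0.598 from edgeR, exact permutation p = 0.0202) and -0.42 (adjusted p = 0.980 from edgeR, exact permutation p = 0.0202). The YSS call of this gene was lost without CT rat XIII-R11 (-0.36) or YSS rat XII-R04 (-0.34). For ENSRNOG00000039471, YSR rats had 2.93, 3.29, 4.05, 4.11 and 4.67 CPM and YSS rats 3.29, 3.58, 3.75, 4.06 and 4.61. All 10 yoked rats were below the CT median of 4.74 CPM. The log2 fold changes were -0.39 (exact permutation p = 0.0707) and -0.38 (exact permutation p = 0.0631). The YSR call was lost with the cohort as a covariate (-0.35), in cohort XIII alone (-0.49) and in 4 of 30 fits that left out a library, and the YSS call in 5 of 30. Over these 30 fits the values were -0.48 to -0.27 in YSR and -0.45 to -0.26 in YSS rats. The other member called lower in YSR rats was ENSRNOG00000047174, 1 of the 4 genes before the long gene, with 2.56, 3.005, 3.09, 3.79 and 3.96 CPM against 3.28, 4.46 and 6.51 as lowest, median and highest CT value. All YSR rats were below the CT median, and 3 of 5 were below every CT rat. Its fitted log2 fold change came to -0.50 (SE 0.17; edgeR adjusted p = 0.514, exact permutation p = 0.0152), and in cohort XIII alone, with 2 YSR rats, it was -0.44 and no longer called.

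In YSS rats, the other member called lower was ENSRNOG00000029244 (log2 fold change -0.28, exact permutation p = 0.0429), and ENSRNOG00000017849, one of the abundant genes at the start, was called higher (log2 fold change 0.11, exact permutation p = 0.00505). Of 30 fits that left out a library, 23 lost the former call and 12 the latter. Over the 30 fits the values were -0.35 to -0.24 and 0.10 to 0.13. The call of ENSRNOG00000029244 was also lost with the cohort as a covariate (-0.28) and with all genes of 30 or more counts (-0.28). The count of 4 in YSS vs. CT was 0 without CT rat XIII-R11, 1 without YSS rat XIII-L04 or XIII-L06, and 2 without CT rat XIII-R06, SR rat XIII-L09, SS rat XIII-L03 or YSS rat XII-R04. In cohort XIII alone, 2 members were called for YSR rats and 4 for YSS rats against CT, beside 5.98% and 6.07% of all genes. There 23 (median -0.17) and 20 (median -0.16) tandem genes were below 0.

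**Figure D3:**
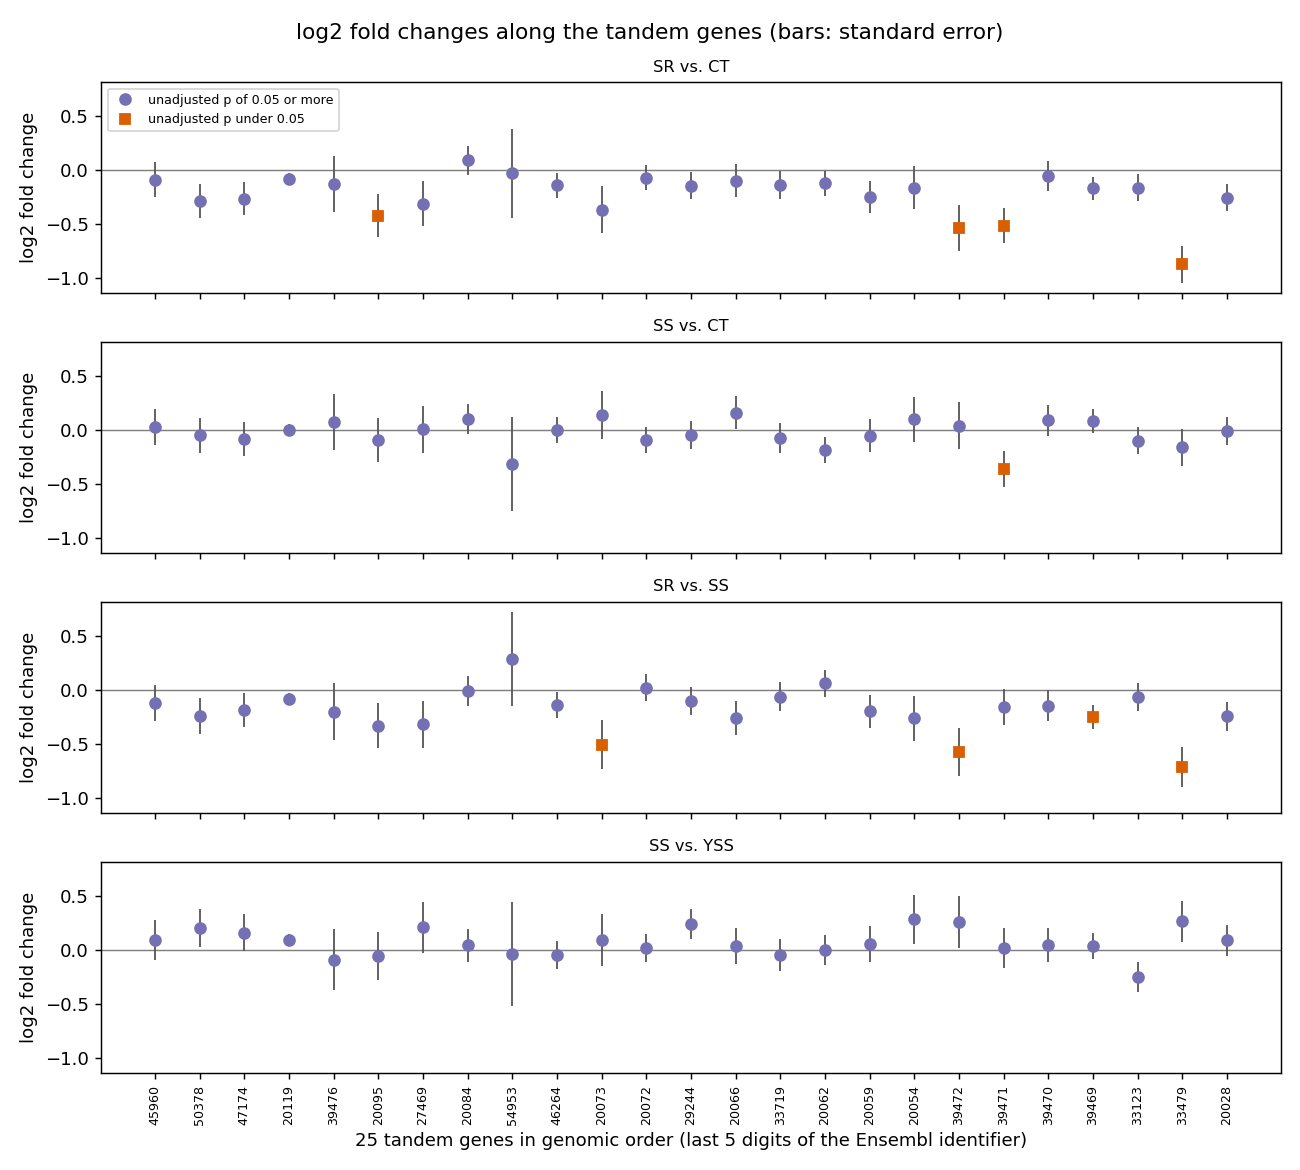
Log2 fold change (bars standard error) of the 25 tandem genes tested, in genomic order from left to right and named by the last digits of their identifiers, in SR vs. CT, SS vs. CT, SR vs. SS and SS vs. YSS. Below 0 lie 24, 13, 22 and 6 genes; orange squares mark genes with an unadjusted p under 0.05.

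SR vs. YSR and SS vs. YSS set METH rats beside saline rats yoked to METH rats of that group. The labels do not say which rats were yoked to each other and not every rat can have its partner among the libraries, so that the tests treat all rats as independent. In SR vs. YSR 18 of 25 tandem genes were below 0 (median -0.12), against 49.6% of all genes. The median was -0.18 without SR rat XIII-R09 and -0.07 without SR rat XII-R05. Only ENSRNOG00000033479 was called unadjusted, beside 8.17% of all genes, and 0 members after adjustment by edgeR, beside 0.0253%. For ENSRNOG00000033479 the fitted log2 fold change came to -0.40 (SE 0.19; edgeR adjusted p = 0.602, exact permutation p = 0.0808), and 4 of 7 SR rats were below every YSR rat. ENSRNOG00000039472, which edgeR did not call, had 2.20, 2.38, 2.61, 3.30 and 3.63 CPM in YSR rats, and 5 of 7 SR rats were below all of them. Its log2 fold change was -0.45 (edgeR adjusted p = 0.644, exact permutation p = 0.0455). The direction did not hold for the tandem genes in cohort XIII alone (3 and 2 rats), where 11 of 25 were below 0 (median 0.02) and 0 members were called, beside 4.54% of all genes. In cohort XII alone (4 and 3 rats, fitted after the data were seen) 18 were below 0 (median -0.21) and 5 members were called (4 lower and 1 higher), beside 9.44% of all genes. ENSRNOG00000033479 lost its call with DESeq2 (-0.40), in cohort XIII (-0.35) and cohort XII (-0.42) alone and in 13 of 30 fits that left out a library, where its value was -0.25 without YSR rat XII-R10 and -0.42 to -0.32 in the other 12. The number of members called was 0 with DESeq2, beside 8.1% of all genes. It was also 0 without CT rat XIII-R05 or XIII-R06, SR rat XIII-R07 or XII-R05, YSR rat XII-R06 or XII-R10, or YSS rat XIII-L02, XIII-L04 or XIII-L06. It was 2 without SR rat XIII-R09 or XII-R07 or SS rat XIII-L05, and 4 without YSR rat XIII-R10, of which ENSRNOG00000033479 was not one.

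In SS vs. YSS the tandem genes leaned to higher levels in the METH rats, with 6 of 25 below 0 (median 0.05), against 47.4% of all genes. No tandem gene was called, and without SS rat XIII-L05 12 of 25 were below 0 (median 0.02), while the median was 0.10 without YSS rat XII-R04. Called were 2 of 37 members, both lower and both among the genes at the start, beside 4.27% of all genes, and 0 after adjustment by edgeR, beside 0% of all genes. ENSRNOG00000017718 had 9.96, 10.5 and 12.2 CPM as lowest, median and highest value in SS rats and 11.4, 12.3, 12.3, 13.1 and 14.2 CPM in YSS rats. A single SS rat, XII-R03, reached into the YSS range. The fitted log2 fold change came to -0.24 (SE 0.08; edgeR adjusted p = 0.995, exact permutation p = 0.00866). ENSRNOG00000016894 had a log2 fold change of -0.54 (exact permutation p = 0.0476), and lost its call with DESeq2 (-0.54), in cohort XIII alone (-0.58) and in 6 of 30 fits that left out a library (-0.54 to -0.38). The count of 2 was 1 without SS rat XIII-L05 or XIII-L07 or YSS rat XIII-L04, XIII-L06 or XIII-R04. In cohort XIII alone (4 rats each) it was 4, beside 6.41% of all genes, of which 3 were tandem genes at higher levels in SS rats. There 9 of 25 tandem genes were below 0 (median 0.14).

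YSR vs. YSS compares saline rats that shared the shocks of SR and of SS rats. In it 15 of 25 tandem genes were below 0 (median -0.01), against 47.5% of all genes. With 1 library left out they were 12 to 18, with the median between -0.08 without YSR rat XII-R10 and 0.00 without YSR rat XIII-R08. At the unadjusted threshold 0 of 37 members were called by edgeR, beside 3.29% of all genes, and 0 by DESeq2, beside 2.97%. With the cohort as a covariate 2 were called, beside 3.75% of all genes. After adjustment edgeR called 0, beside 0% of all genes. The members with the smallest p were ENSRNOG00000017718 (log2 fold change -0.17, exact permutation p = 0.0238) and ENSRNOG00000002908 (log2 fold change 0.09, exact permutation p = 0.175). Leaving out 1 library gave 0 or 1 called members.

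The test over all 5 groups at once called 3 of 37 members unadjusted, beside 7.32% of all genes, and 0 members after adjustment by edgeR, beside 0.171%. They were ENSRNOG00000033479 (adjusted p = 0.141 from edgeR), ENSRNOG00000016894 (adjusted p = 0.371) and ENSRNOG00000039471 (adjusted p = 0.646). The count of 3 was 5 without SS rat XII-R03 or YSR rat XIII-R10, and 1 in cohort XIII alone, beside 6.6% of all genes. For ENSRNOG00000033479 the group means were, in order, 2.93 ± 0.518 CPM in CT (SD, n = 7), 2.62 ± 0.664 in SS (n = 6), 2.18 ± 0.325 in YSS (n = 5), 2.13 ± 0.499 in YSR (n = 5) and 1.59 ± 0.436 in SR rats (n = 7). CT rats were highest and SR rats lowest, with the other groups between them and overlapping both. The contrast (SR - YSR) - (SS - YSS), chosen after the data were seen, asks whether SR and SS rats differ alike from their yoked groups. SR and SS rats differ in METH intake and number of shocks as well as in phenotype. Called unadjusted were 4 of 37 members (1 higher and 3 lower), beside 5.43% of all genes, and 0 after adjustment by edgeR, beside 0% of all genes. The lowest adjusted p of a member was 0.836, and for ENSRNOG00000033479 the contrast was -0.67 (standard error 0.27, adjusted p = 0.846 from edgeR).

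Cohorts XII and XIII differed in the interval about as often as elsewhere. With the group in the model, 6 of 37 members were called unadjusted (2 higher and 4 lower in cohort XIII), beside 16.4% of all genes, and 0 after adjustment by edgeR, beside 0.481% of all genes. Of the tandem genes, 9 of 25 were below 0 (median 0.02), against 50.8% of all genes. With 1 library left out they were 7 to 13, with the median between -0.00 without CT rat XII-R11 and 0.06 without YSR rat XIII-R08, and with the cohort as the only factor they were 7 (median 0.06). The long gene ENSRNOG00000020119 had 121, 140 and 152 CPM as lowest, median and highest value in cohort XII (n = 11) and 131, 148 and 170 in cohort XIII (n = 19). The cohorts overlapped widely. The fitted log2 fold change came to 0.09 (SE 0.04; edgeR adjusted p = 0.223). Within SR rats the cohorts did not overlap, with 131 ± 8.22 CPM (SD, n = 4) in cohort XII and 150 ± 6.32 (SD, n = 3) in cohort XIII, whereas the YSR rats had 146 ± 5.45 (n = 3) and 148 ± 16.8 (n = 2). The long gene had a lower mean in all SR rats (139 ± 12.3 CPM) than in CT rats (147 ± 7.86), but not in cohort XIII alone, where the CT rats had 147 ± 8.58 (n = 6).

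The member with the smallest p between cohorts was ENSRNOG00000002908, a gene at the start of the interval (29506128 to 29509296). It had 54.7, 58.4 and 61.4 CPM as lowest, median and highest value in cohort XII and 48.0, 54.7 and 60.6 in cohort XIII. The fitted log2 fold change came to -0.09 (SE 0.03; edgeR adjusted p = 0.106), a small difference in an evenly expressed gene. With the cohort as the only factor the adjusted p was 0.0327 from edgeR, and over the other alternatives of this comparison no member passed. The other members called were ENSRNOG00000017718 (log2 fold change -0.12), ENSRNOG00000016016 (-0.07) and ENSRNOG00000020095 (-0.30), all lower in cohort XIII, and ENSRNOG00000050378, 1 of the 4 genes before the long gene (0.26). With the cohort as the only factor the calls of ENSRNOG00000017718 (-0.09) and ENSRNOG00000020095 (-0.18) were lost. Of 30 fits that left out a library, 17 lost the call of ENSRNOG00000020095 and 13 that of ENSRNOG00000016016. Over the 30 fits the values were -0.36 to -0.23 and -0.08 to -0.05. The count of 6 was 3 without SR rat XIII-L09 or XII-L05 or YSR rat XIII-R10, and 2 without SS rat XII-R03.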

How the data were processed

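RNA from single rats was sequenced, and the deposited tables hold counts of reads per Ensembl gene, which the authors made with bcl2fastq 2.17, Trimmomatic 0.36, STAR 2.5.2b and featureCounts of Subread 1.5.2. Genome build, annotation release, strand setting and the handling of multi-mapping reads are not given in the sources used here. From the counts, CPM with TMM factors, fold changes and tests were computed with edgeR 4.0.16 in R 4.3.3 (filterByExpr, quasi-likelihood fit with the group as only factor over 30 libraries), for 8 comparisons of 2 groups, a test over 5 groups and cohort XIII vs. XII with the group in the model. Permutation tests and summaries used Python 3.11.15 with numpy 2.4.6, pandas 2.3.3 and scipy 1.17.1, and figures matplotlib 3.10.9. The scripts were tested on simulated data. CPM per kb used exon bases that no other gene holds. Libraries had 14584340 to 19997820 counts.

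The members and lists were chosen with earlier results of these data known. Named members are those with an adjusted p under 0.05 in any of the 10 comparisons, the 3 highest per kb among single-exon and among several-exon genes, the 2 with the smallest p in each comparison of 2 groups, and the 5 with the smallest p in the test over 5 groups and between cohorts, 15 in all. Genes named outside this rule were picked with their values in view. Alternatives were median-ratio size factors, DESeq2 1.42.0, all genes with 30 or more counts (19128 genes), at least 10 counts in every library (13896 genes, 33 members), cohort XIII on its own, a term for the cohort in the model, the cohort without the group, each library left out and the deposited exon length. Cohort XII alone and the contrast (SR - YSR) - (SS - YSS) were added after the data were seen. In 77 pairs of libraries of a group, the squared differences in counts of 11793 genes were 5.08 to 27.1 times those of counting error alone (chi-square per degree of freedom). Pairs across groups were not compared, and libraries made separately from the RNA of 1 rat cannot be told apart by this. The 4 genes of the interval with fewer than 30 counts were left out.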

Additional observations from a re-analysis of the deposited data

Results flagged for a closer look

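In 90 groups of values (15 named members and 3 sums, in 5 groups each), 10 held a rat far from the others of its group by Dixon's test, where chance at 1 in 20 gives 4.5. SS rat XIII-L05 accounts for 5 of them, all with tandem genes and all at the high end. It had 170.0 CPM of ENSRNOG00000020119 (other SS rats 139 to 150), 5.38 of ENSRNOG00000039472 (2.06 to 3.15), 6.08 of ENSRNOG00000039471 (3.27 to 3.76), 15.2 of ENSRNOG00000039469 (9.21 to 11.2) and 141 summed over the 21 genes after the long gene (106 to 117). The single genes are part of the sum or neighbours of it, so that these 5 are not independent. The cause was not tested.

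The others were single rats. SR rat XIII-R09 had 5.03 CPM of ENSRNOG00000039471 (other SR rats 2.76 to 3.72), and SR rat XII-R05 had 94.4 CPM of ENSRNOG00000028105 (79.2 to 84.3). CT rat XIII-R05 had 34.3 CPM of ENSRNOG00000017571 (28.1 to 30.3). YSR rat XII-R10 had 3.005 CPM of ENSRNOG00000033479 (1.78 to 2.00), and YSR rat XIII-R10 had 10.98 CPM summed over the 4 genes before the long gene (8.26 to 8.92).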

How the results depend on the processing

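The values below are numbers of members with an unadjusted p under 0.05. In cohort XIII alone, with fewer rats, they were 1 in SR vs. CT (beside 7.19% of all genes), 1 in the test over 5 groups (6.6%), 2 in YSR vs. CT (5.98%) and 0 in SS vs. CT (4.28%). They were 4 in SS vs. YSS (6.41%), 2 in SR vs. SS (6.74%), 1 in YSR vs. YSS (3.99%) and 0 in SR vs. YSR (4.54%). With the cohort as a covariate they were 0 in SS vs. CT and 2 in YSR vs. YSS, with DESeq2 0 in SR vs. YSR and 1 in SS vs. YSS, with at least 10 counts in every library 1 for YSR vs. YSS and 1 for SS vs. YSS, and with median-ratio size factors 1 in YSR vs. YSS. With the cohort alone, without the group, 4 were called between cohorts, beside 19.9% of all genes. Cohort XII alone, chosen after the data were seen, gave 5 in SR vs. YSR (4 lower and 1 higher, beside 9.44% of all genes) and 4 in SR vs. SS (1 lower and 3 higher, beside 8.32%). With each library left out they were 2 to 6 between cohorts, 2 to 5 over 5 groups, 0 to 1 for YSR vs. YSS, 3 to 10 for SR vs. CT, 1 to 3 for SS vs. YSS, 3 to 5 for YSR vs. CT, 0 to 4 for SR vs. YSR, 0 to 1 for SS vs. CT, 2 to 7 for SR vs. SS and 0 to 4 for YSS vs. CT. The shares of all genes in the fits that left out a library are not given here, and the cause of the shifts in these numbers was not tested.

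Of 1004 alternative values of 28 fold changes of single members, 852 kept direction and side of the threshold. Another 152 kept the direction but missed the threshold, and 0 changed direction. These 28 were picked because they had an unadjusted p under 0.05 in the fit over all 30 libraries. Most alternatives left out a library and shared all others with that fit, often with both compared groups whole. A change of direction was therefore unlikely from the outset, and its absence is not a test of these fold changes. No paired analysis was made, because the labels do not say which yoked rat belongs to which METH rat. Some METH and yoked rats have neighbouring codes, such as SR rat XIII-R07 and YSR rat XIII-R08, but whether these are pairs is not stated. With the deposited exon length, ENSRNOG00000017571 had 53.9 CPM per kb in place of 61.6. Single tandem genes after the long gene had 7 to 281 counts per library, which limits the fold changes that can be told from counting error.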

Other observations

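Past the interval, 18 further genes on the plus strand (30808404 to 30912592) stand in tandem before another long gene, ENSRNOG00000019799 (30913842 to 30969361, 10 exon blocks). They were chosen after the coordinates were seen. Summed over the 18 genes, CT rats had 179 ± 15.3 CPM (SD, n = 7), SR rats 169 ± 14.6 (n = 7), SS rats 181 ± 21.6 (n = 6), YSR rats 176 ± 10.5 (n = 5) and YSS rats 179 ± 8.15 (n = 5), and the groups overlapped. In SR vs. CT 12 of 18 had a log2 fold change below 0 (median -0.11), against 49.0% of all genes, and 3 were called at an unadjusted p under 0.05, all lower, beside 10.5% of all genes. In SR vs. SS 13 of 18 were below 0 (median -0.10), against 50.4%, and 5 were called, all lower, beside 7.46%. In SR vs. YSR 10 of 18 were below 0 (median -0.07), against 49.6%, and 4 were called (3 lower and 1 higher), beside 8.17%. Of the other comparisons, YSR vs. CT had 1 called lower, beside 7.56%, and cohort XIII vs. XII 3 called higher, beside 16.4%. SS rat XIII-L05 had 217 CPM. Their median BCV was 0.172.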
